A study of Homo sapiens with 16 samples.

Results

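Genes of the antioxidant response and targets of the transcription factor NRF2 were examined in U2OS cells given harmine or INDY. The study describes these confluent, serum-starved cells as quiescent. The set holds 39 genes of the 59081 in the count table. They were chosen by name and by no cut on a measured value, but with earlier results of these data known. They come from NRF2 and its inhibitor, glutathione and thioredoxin metabolism, NADPH supply, quinone and haem metabolism, and ferritin. The others belong to the removal of peroxide and superoxide, to aldo-keto reductases and other carbonyl enzymes, and to the export of conjugates. After a filter on low counts 38 of the 39 were tested, among 20446 genes in all. AKR1C2 was below the filter, with 1 to 19 counts in a library.

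U2OS is a human osteosarcoma cell line. Confluent cells spent 48 h without serum, and for the last 24 h they were given harmine hydrochloride (10 µM) or INDY (25 µM), which the study used as inhibitors of the kinase DYRK1A to disturb repression by the DREAM complex. Mock-treated cells were given water as the control of harmine and DMSO as the control of INDY, and no control library was shared. Each of the 4 groups had 4 libraries of poly(A) RNA from this line, with no genetic change named. The labels do not say whether replicates came from separate cultures. A p-value here therefore sets an effect against the variation among libraries of a group, and that variation may be technical only. Dose and vehicle differ between the compounds, and a difference between them is a difference between the treatments as given. The cells are bulk samples, in which fewer cells of a kind and less RNA per cell cannot be told apart.

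NRF2, encoded by NFE2L2, binds antioxidant response elements with a small MAF protein and drives genes for glutathione synthesis, thioredoxin reduction, NADPH supply, iron storage and the detoxification of reactive carbonyls and quinones. KEAP1 holds NRF2 for ubiquitination by CUL3 and lets it escape when its cysteines are modified by oxidants or electrophiles. Much of this control acts on the NRF2 protein, and mRNA of its targets is the usual readout of its activity. Several of the genes also answer to other factors, among them the stress factor ATF4 for cystine uptake and NF-kB for SOD2.

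The antioxidant response element carries the letters TGACNNNGC, and TGACTCAGC is a subset of them that also holds an AP-1 site. These letters were searched on both strands from 1000 bases before to 50 bases after the start of each gene's principal transcript. TGACNNNGC was present in 19 of the 39 (48.7%) and in 34.5% of all 20033 protein-coding promoters of that length. TGACTCAGC was present in 5 of the 39 (12.8%) and in 1.4% of all promoters. Within 250 bases before and 50 bases after the start the shares were 20.5% against 14% for TGACNNNGC and 2.6% against 0.4% for TGACTCAGC. To show how the response element reads when spelled in full, 4 of the 5 complete matches are printed here in the direction of the gene. The NQO1 and ME1 genes lie on the minus strand and the other 2 on the plus strand of GRCh38 (hg38), and capitals mark the match.
NQO1 (chr16:69726991-69727031): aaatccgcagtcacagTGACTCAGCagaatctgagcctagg
ME1 (chr6:83431164-83431204): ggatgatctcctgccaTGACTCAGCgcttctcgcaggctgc
TALDO1 (chr11:746495-746535): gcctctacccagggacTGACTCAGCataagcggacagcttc
ABCC1 (chr16:15949063-15949103): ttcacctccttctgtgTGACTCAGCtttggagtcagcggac
The matches begin 455 bases upstream of the start for NQO1, 137 for ME1, 953 for TALDO1 and 537 for ABCC1. ME1 and ABCC1 fell with both compounds, TALDO1 rose with both, and NQO1 fell with harmine. A match is a run of letters and was not tested as a binding site.

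Totals of the estimated counts were 44301910 to 65889667 per library. Levels are given as CPM, that is, counts scaled to library size (here with TMM factors), and a gene was called at an adjusted p under 0.01 from edgeR's quasi-likelihood test over all 20446 genes. Of 9 markers fixed for the osteoblast lineage and mesenchyme, VIM, COL1A1, RUNX2, ALPL and SPP1 were present. Their log2 fold changes ran from -2.29 (ALPL) to 0.65 (SPP1) with INDY and from -0.82 (SPP1) to 0.58 (RUNX2) with harmine. SP7, IBSP, COL1A2 and BGLAP had group means under 1 CPM. The summed level of 5 blood markers stayed between 0.222 and 2.34 CPM. It was highest with INDY, where CD14 stood at 1.07 to 2.26 CPM. Of 6 epithelial markers CDH1, KRT5 and KRT19 had group means under 1 CPM, EPCAM was at a mean of 3.86 CPM with water, and the summed level, nearly all KRT8 and KRT18, was 612 to 645 CPM with water, 595 to 607 with harmine, 568 to 588 with DMSO and 629 to 672 with INDY. The summed level of 4 proliferation genes was 915 to 1115 CPM with water, 1227 to 1290 with harmine, 1125 to 1222 with DMSO and 1250 to 1492 with INDY. Transcripts of proliferation genes were thus present in every group of the cells that the study calls quiescent. The part of these markers in the results was not tested. Water replicates 1 and 4 stood apart from replicates 2 and 3 for several of the genes, and INDY replicates 1 and 3 from replicates 2 and 4. For instance, AKR1C3 measured 12.6, 8.69, 8.58 and 13.3 CPM in water replicates 1 to 4, and HMOX1 66.7, 86.7, 61.7 and 82.9 CPM in INDY replicates 1 to 4.

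With harmine most of the called genes were lower. Of the 38, 20 fell and 4 rose (52.6% and 10.5%), where 22.8% of all genes tested fell and 24.9% rose. Every harmine library was below every water library for 23 of the 38 (all genes, 26.4%) and above for 5 (all genes, 28.6%). The median log2 fold change was -0.17, against 0.02 over all genes. Changes of at least 1.5-fold were made by 6 genes, all lower (15.8%, against 7.9% of all genes), and the highest rise, that of PGD, was 0.39 on the log2 scale and below 1.5-fold (8.41% of all genes were called higher by at least that). The 6 were OSGIN1, AKR1C3, SLC7A11, FTL, ME1 and NFE2L2. Among the genes that rose, PGD and TALDO1 of the pentose phosphate pathway and the peroxiredoxin PRDX2 kept their call in every alternative fit, and ALDH3A1 did not.

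With INDY genes of the set went both ways, as did all genes tested. Of the 38, 16 fell and 9 rose (42.1% and 23.7%), where 33.4% of all genes fell and 33.2% rose. Every INDY library was below every DMSO library for 17 (all genes, 34.1%) and above for 10 (all genes, 33.4%). The median log2 fold change was -0.09, against -0.008 over all genes. At least 1.5-fold lower were AKR1B10, SLC7A11, GSS, HMOX1, ME1 and GCLM (15.8%, against 19.4% of all genes), and at least 1.5-fold higher were EPHX1 and GCLC (against 14.3% of all genes).

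**Figure D1:**
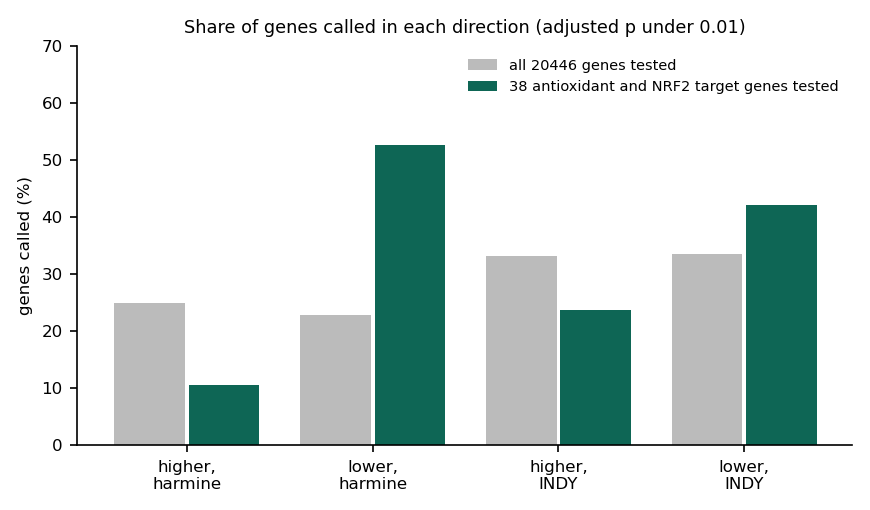
Percent of genes called higher or lower at an adjusted p under 0.01 (vertical axis, from 0) with each compound against its own control, for all 20446 genes tested (grey) and for the 38 antioxidant and NRF2 target genes tested (green). With harmine 52.6% of the 38 fell against 22.8% of all genes, and with INDY 42.1% fell against 33.4%.

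Called lower with both compounds were 11 genes (28.9%, against 12% of all genes): SLC7A11, GCLM, GSR, TXNRD1, SRXN1, ME1, OSGIN1, FTL, SOD2, CAT and ABCC1. PGD and TALDO1 rose with both (5.26%, against 12.1% of all genes). GCLC, GPX4, CBR1 and EPHX1 fell with harmine and rose with INDY (10.5%, against 4.55% of all genes), and PRDX2 did the reverse (2.63%, against 6.26%). The remaining 20 genes were called with 1 compound or neither. In the test of the difference between the compounds, the INDY effect was above the harmine effect for 15 of the 38 and below it for 7 (26.4% and 28.1% of all genes), and for 16 no difference was called.

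**Figure D2:**
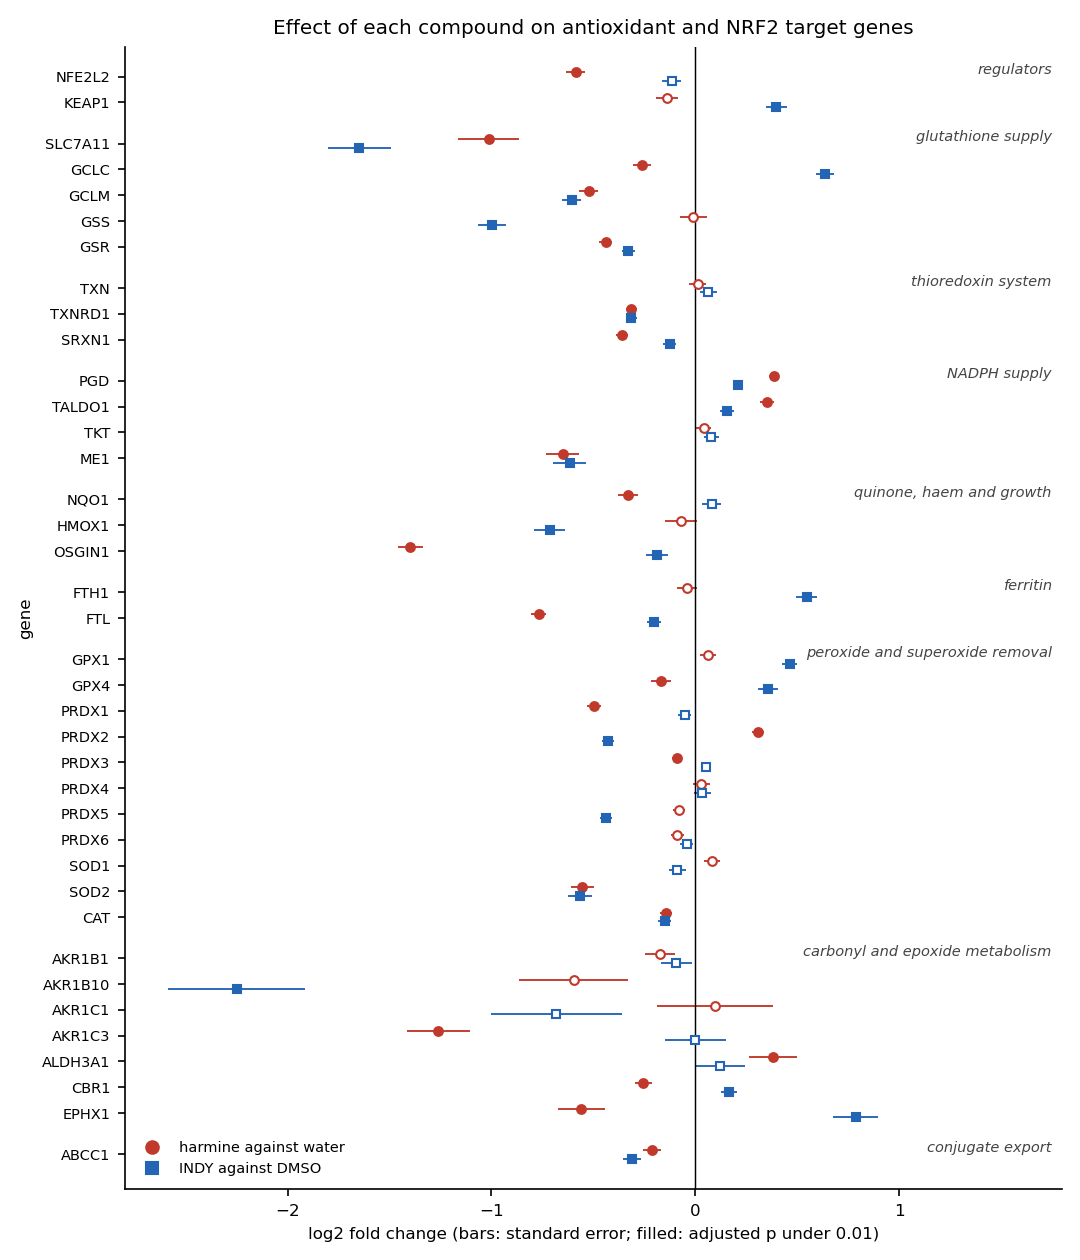
Log2 fold change (horizontal axis) of the 38 genes tested, grouped by role, with harmine against water (red circles) and INDY against DMSO (blue squares), 4 libraries per group. Bars are standard errors and filled symbols passed an adjusted p of 0.01. OSGIN1 and AKR1C3 lie far to the left with harmine alone, GSS with INDY alone, and SLC7A11 with both. AKR1B10 lies farthest left with INDY, and with harmine it is also left of the zero line but was not called.

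The mRNA of NRF2 itself was lower with harmine. NFE2L2 (chr2:177218667-177392756, minus strand) measured 78.6, 71.9, 71.6 and 77.4 CPM in the 4 water libraries and 48.6, 52.8, 48.4 and 49.3 CPM in the 4 harmine libraries, which did not overlap (log2 fold change -0.59 ± 0.05 (SE), adjusted p = 6.97e-09). Gene positions are given in GRCh38 from GENCODE. With DMSO it stood at 74.8, 73.5, 76.3 and 71.3 CPM and with INDY at 69.3, 61.4, 73.5 and 68.9 CPM, which overlapped (log2 fold change -0.12, 95% interval -0.22 to -0.02, adjusted p = 0.0352), although without INDY replicate 3 it was called lower (adjusted p = 0.00707). The effects of the compounds on NFE2L2 differed by a log2 value of 0.47 (adjusted p = 6.99e-06). KEAP1, the adaptor that marks NRF2 for degradation, rose with INDY, from 54.6, 52.3, 51.4 and 50.6 CPM with DMSO to 70.9, 63.1, 76.9 and 64 CPM (log2 fold change 0.40 ± 0.05 (SE), adjusted p = 1.28e-06). In the harmine libraries KEAP1 was 50.9, 50.9, 49.9 and 48.8 CPM, all below the water libraries at 56.4, 54.9, 51.8 and 57.8 CPM, and this did not pass the threshold (log2 fold change -0.14, adjusted p = 0.0288), which it did in 4 alternative analyses, among them without water replicate 3 (adjusted p = 0.00882). NFE2L2 shares 15.2% of its 100-base stretches with 1 other annotated gene, which was at a mean of 2.22 CPM (scaled to library totals) in the water libraries and 4.54 in the harmine libraries.

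Of the 5 genes of glutathione supply, 4 were lower with harmine (80%, against 22.8% of all genes). With INDY 4 were lower and 1 higher (80% and 20%, against 33.4% and 33.2% of all genes). Glutathione is made from cystine taken up by the exchanger xCT (SLC7A11), then by glutamate-cysteine ligase, a pair of a catalytic (GCLC) and a modifier (GCLM) subunit, and then by glutathione synthetase (GSS), and it is recycled by glutathione reductase (GSR). SLC7A11 (chr4:138164097-138242349, minus strand) fell with both compounds. It measured 61.1, 60.6, 62 and 53.7 CPM with water and 24.9, 30, 32.5 and 29.9 CPM with harmine (log2 fold change -1.01 ± 0.15 (SE), adjusted p = 1.12e-05). With DMSO it was 65.7, 65, 69.6 and 67.5 CPM and with INDY 20.1, 30.2, 12.7 and 22.9 CPM (log2 fold change -1.65 ± 0.15 (SE), adjusted p = 1.29e-08). No treated library reached a control library for either compound, and INDY replicate 3 was the lowest of all 16. The difference between the 2 effects, -0.63 on the log2 scale (95% interval -1.08 to -0.19), did not pass the threshold (adjusted p = 0.0138). It passed in 5 alternative analyses, among them limma voom (-0.71, adjusted p = 0.00532) and edgeR's test without INDY replicate 2 (-0.83, adjusted p = 0.000298) or INDY replicate 3 (-0.42, adjusted p = 0.00959).

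Of the ligase subunits, GCLC (chr6:53497341-53616970, minus strand) changed in opposite directions and GCLM (chr1:93885199-93909456, minus strand) in the same direction. GCLC was at 44.9, 42.8, 44.6 and 46.8 CPM with water and 36.6, 37.9, 39.2 and 35.7 CPM with harmine (log2 fold change -0.26 ± 0.04 (SE), adjusted p = 5.01e-05), and at 47.2, 43.3, 47 and 45.2 CPM with DMSO and 72.9, 66.9, 75.5 and 68.9 CPM with INDY (log2 fold change 0.64 ± 0.04 (SE), adjusted p = 1.41e-10). All INDY libraries lay above all others and all harmine libraries below all others. The effects differed by 0.90 on the log2 scale (adjusted p = 5.28e-10). GCLM, in contrast, fell from 36, 33.7, 34 and 35.1 to 25.9, 23.6, 24.8 and 22.3 CPM with harmine (log2 fold change -0.52) and from 38.5, 35.5, 36.5 and 36.1 to 25, 23.9, 22.6 and 24.9 CPM with INDY (log2 fold change -0.61), and no difference between the effects was called (difference -0.08, 95% interval -0.22 to 0.05). The ratio of GCLC to GCLM CPM within a library was 1.25, 1.27, 1.31 and 1.33 with water and 1.42, 1.61, 1.58 and 1.6 with harmine, and 1.22, 1.22, 1.29 and 1.25 with DMSO and 2.91, 2.8, 3.34 and 2.77 with INDY, a ratio chosen after the values were seen and given without a test.

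GSS (chr20:34928432-34956027, minus strand) fell with INDY. It stood at 52.1, 55.5, 54.7 and 55.6 CPM with DMSO and 25.4, 30.9, 22.5 and 30.6 CPM with INDY, about 0.501 times the control level (log2 fold change -0.996 ± 0.07 (SE), adjusted p = 1.93e-10). With harmine it was 51.8, 50.7, 52.8 and 51.8 CPM against 52.3, 52.9, 50.2 and 53.2 CPM with water (log2 fold change -0.0097, 95% interval -0.15 to 0.13). The test of the difference gave -0.99 (adjusted p = 5.06e-08). GSR fell with both, to 46.6, 45.6, 47.7 and 46.4 CPM from 61.9, 64.3, 62.4 and 64.1 CPM with harmine (log2 fold change -0.44) and to 50.4, 54.2, 52.3 and 54.6 CPM from 66.2, 65.1, 66.6 and 67.6 CPM with INDY (log2 fold change -0.33). Its effects differed by 0.11 (adjusted p = 0.0277), which did not pass, but did without INDY replicate 1 (adjusted p = 0.00911).

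**Figure D3:**
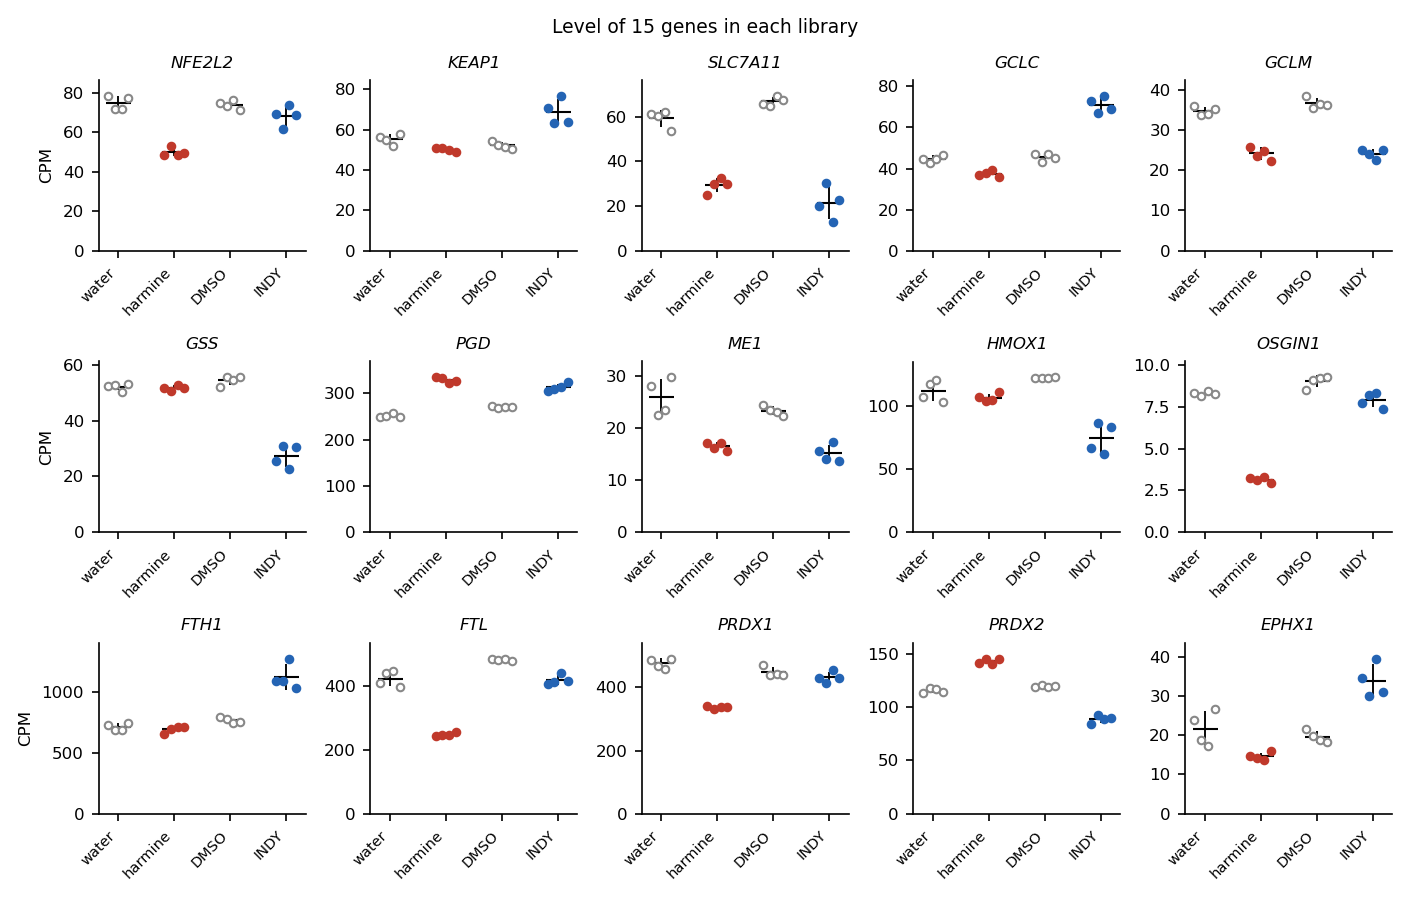
Level in CPM (vertical axes, from 0) of 15 genes in each of the 16 libraries. Points are libraries (open, controls; filled, treated), short lines the group mean and bars the SD of 4 libraries. GCLC, FTH1, KEAP1 and EPHX1 were higher in every INDY library than in every DMSO library, and NFE2L2, OSGIN1, FTL and PRDX1 were lower in every harmine library than in every water library.

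In the thioredoxin system the reductase and sulfiredoxin fell with both compounds, and thioredoxin was not called. TXNRD1, which passes electrons from NADPH to thioredoxin, fell from 134, 137, 135 and 135 to 112, 108, 107 and 108 CPM with harmine (log2 fold change -0.31 ± 0.03 (SE), adjusted p = 1.57e-08) and from 146, 151, 148 and 146 to 114, 119.8, 118 and 124 CPM with INDY (log2 fold change -0.31 ± 0.03 (SE), adjusted p = 5.28e-09). The effects of the compounds on TXNRD1 differed by less than the error (95% interval -0.08 to 0.08). SRXN1, the sulfiredoxin that restores over-oxidized peroxiredoxins, fell by more with harmine (log2 fold change -0.36, 52.7 to 53.9 CPM against 65.9 to 70.6 CPM) than with INDY (-0.13, 67.5 to 71.6 CPM against 74.8 to 78 CPM), with a difference of 0.23 (adjusted p = 9.37e-05). Of the SRXN1 stretches, 90.4% also occur in another annotated gene, which had no counts in any library. Thioredoxin, TXN, was at 71.9 to 79.6 CPM with water and 73.1 to 78.8 CPM with harmine, and the 95% intervals of its log2 fold change were -0.07 to 0.10 with harmine and -0.02 to 0.15 with INDY.

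Of 4 genes listed under NADPH supply, PGD and ME1 encode enzymes that make NADPH themselves. Among the 4, 2 rose with both compounds and 1 fell with both (all genes, 12.1% and 12%). PGD, the 6-phosphogluconate dehydrogenase of the pentose phosphate pathway, rose with harmine from 249, 251, 258 and 249 to 335, 332, 323 and 326 CPM (log2 fold change 0.39 ± 0.02 (SE), adjusted p = 2.02e-10) and with INDY from 273, 268, 271 and 271 to 306, 309, 314 and 323 CPM (log2 fold change 0.21 ± 0.02 (SE), adjusted p = 2.92e-07). TALDO1, the transaldolase, rose too, to 89 to 92.6 CPM with harmine from 69.6 to 71.9 CPM (log2 fold change 0.35) and to 78.4 to 82.6 CPM with INDY from 68.7 to 77.2 CPM (log2 fold change 0.16). Both rose less with INDY than with harmine, with differences of -0.18 for PGD (adjusted p = 0.000183) and -0.19 for TALDO1 (adjusted p = 0.00193, and 0.0105 without harmine replicate 2). TKT, the transketolase of the same branch, was not called (95% intervals -0.04 to 0.12 with harmine and 0.0016 to 0.16 with INDY), but without INDY replicate 3 it was called higher with INDY (log2 fold change 0.12, adjusted p = 0.00216). ME1, the cytosolic malic enzyme, fell with both. It measured 28, 22.6, 23.4 and 29.8 CPM with water, 17.1, 16.2, 17.2 and 15.5 CPM with harmine, 24.4, 23.5, 23.1 and 22.4 CPM with DMSO and 15.6, 14.2, 17.3 and 13.8 CPM with INDY. The log2 fold changes were -0.65 ± 0.08 (SE), adjusted p = 1.65e-06 for harmine and -0.62 ± 0.08 (SE), adjusted p = 1.75e-06 for INDY, and they differed by 0.04 (95% interval -0.21 to 0.28).

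NQO1, HMOX1 and OSGIN1 are often read as reporters of NRF2, and they did not move as a group. NQO1, a quinone reductase, fell from 18.5, 19.3, 19.5 and 17.5 to 13.9, 14.9, 15.1 and 15.6 CPM with harmine (log2 fold change -0.33 ± 0.05 (SE), adjusted p = 1.51e-05). With INDY it was 22.7, 24.3, 23.6 and 24.7 CPM against 24, 22.6, 22.1 and 21.2 CPM with DMSO, which overlapped (log2 fold change 0.08, 95% interval -0.02 to 0.18). The NQO1 level of the DMSO libraries was itself above that of the water libraries (log2 fold change 0.27, adjusted p = 0.00198).

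HMOX1, the haem oxygenase, showed the opposite arrangement. It was 107, 117, 120.0 and 103 CPM with water and 107, 104, 104 and 111 CPM with harmine (log2 fold change -0.07, 95% interval -0.23 to 0.09), and it fell from 122, 122, 122 and 123 CPM with DMSO to 66.7, 86.7, 61.7 and 82.9 CPM with INDY (log2 fold change -0.72 ± 0.08 (SE), adjusted p = 1.25e-07). OSGIN1 (chr16:83931311-83966332, plus strand), an oxidative stress-induced growth inhibitor, had the largest harmine effect among the 38, from 8.32, 8.19, 8.45 and 8.26 to 3.23, 3.12, 3.3 and 2.95 CPM (log2 fold change -1.40 ± 0.06 (SE), adjusted p = 1.86e-12), a level about 0.379 times the control. With INDY it was 7.76, 8.22, 8.37 and 7.37 CPM against 8.53, 9.13, 9.22 and 9.3 CPM (log2 fold change -0.19, adjusted p = 0.00527), a call lost in 10 alternative analyses (log2 fold change -0.21 to -0.15), among them without DMSO replicate 2, 3 or 4 or INDY replicate 1 or 4 (adjusted p 0.0131 to 0.0279). The difference between the compounds was -0.65 for HMOX1 (adjusted p = 4.7e-05) and 1.21 for OSGIN1 (adjusted p = 5.16e-10).

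Ferritin, the shell that stores iron, is built from heavy (FTH1, chr11:61959718-61967634, minus strand) and light (FTL, chr19:48965309-48966879, plus strand) chains, which were among the most abundant of the mRNAs here. Per kb of principal transcript, FTH1 had the highest level of the 39 with water (589 CPM per kb) and FTL the third highest (485 CPM per kb), with PRDX1 between them (504 CPM per kb). The order depends on the transcript taken. SOD2 ranked 18 (49.4 CPM per kb) with a principal transcript of 14167 bases, and a shorter transcript would give a higher value. FTL fell from 409.8, 439.8, 446 and 396 to 245, 247, 247 and 255 CPM with harmine (log2 fold change -0.77 ± 0.04 (SE), adjusted p = 3.29e-12) and from 486, 479.8, 486 and 478 to 407, 413, 441 and 415 CPM with INDY (log2 fold change -0.20 ± 0.03 (SE), adjusted p = 3.35e-05). FTH1 was not called with harmine, at 649, 694, 710.2 and 706 CPM against 728, 684, 682 and 741 CPM (95% interval of the log2 fold change -0.15 to 0.07), and it rose with INDY from 791, 778, 745 and 749 to 1088, 1084, 1271 and 1033 CPM (log2 fold change 0.55 ± 0.05 (SE), adjusted p = 1.18e-08). Both chains were thus higher after INDY than after harmine relative to their controls, by 0.59 for FTH1 (adjusted p = 9.2e-07) and 0.57 for FTL (adjusted p = 1.35e-08).

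The ratio of the chains was higher with either compound. FTH1 to FTL within a library was 1.78, 1.56, 1.53 and 1.87 with water and 2.65, 2.81, 2.88 and 2.77 with harmine. With DMSO it was 1.63, 1.62, 1.53 and 1.57 and with INDY 2.67, 2.62, 2.88 and 2.49. Every treated library had a higher ratio than every control library. This ratio too was chosen after the values were seen and is given without a test, and it compares CPM without regard to transcript length.

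**Figure D4:**
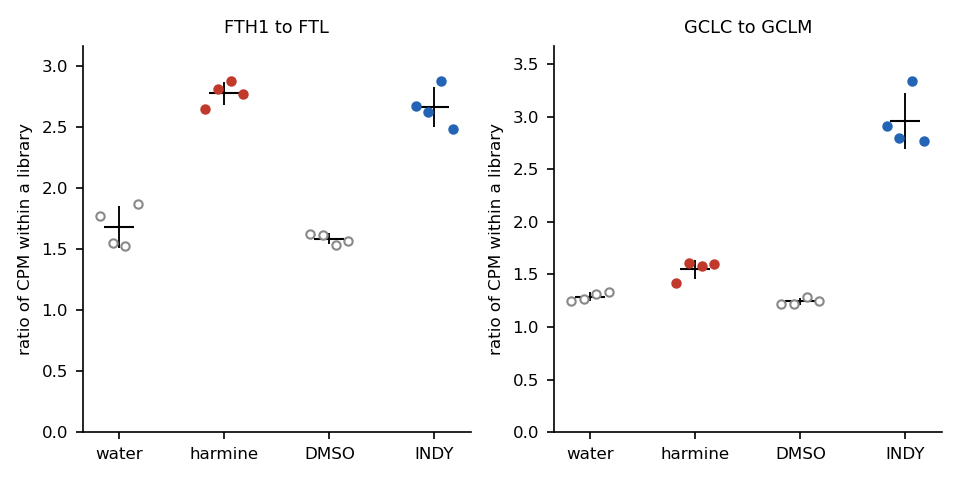
Ratio of the CPM of FTH1 to FTL (left) and of GCLC to GCLM (right) within each library (vertical axes, from 0). Points are libraries, short lines the mean and bars the SD of 4 libraries per group. The FTH1 to FTL ratio was 2.65 to 2.88 with harmine and 2.49 to 2.88 with INDY, against 1.53 to 1.87 in the controls, and the GCLC to GCLM ratio reached 2.77 to 3.34 with INDY.

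Of the 11 genes that remove peroxide and superoxide, 5 fell and 1 rose with harmine (45.5% and 9.09%, against 22.8% and 24.9% of all genes). With INDY 4 fell and 2 rose (36.4% and 18.2%, against 33.4% and 33.2% of all genes). The glutathione peroxidases GPX1 and GPX4 rose with INDY. GPX1 went from 104, 97, 95.7 and 95.7 to 134, 128, 143 and 136 CPM (log2 fold change 0.46 ± 0.04 (SE), adjusted p = 2.51e-09) and GPX4, which reduces lipid peroxides, from 183, 172, 164 and 167 to 222, 208, 243 and 204 CPM (log2 fold change 0.35 ± 0.05 (SE), adjusted p = 2.66e-06). With harmine GPX1 was not called (log2 fold change 0.06), and GPX4 was lower at 136, 147, 146 and 149 CPM against 167, 158, 156 and 167 CPM (log2 fold change -0.17, adjusted p = 0.00735), a call lost in 5 alternative analyses, among them without water replicate 1 or 4 or harmine replicate 1 (adjusted p 0.0212 to 0.025). GPX1 shares 20.4% of its stretches with 2 other annotated genes.

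The peroxiredoxins, thiol peroxidases of the cytosol, mitochondria and endoplasmic reticulum, did not move together. PRDX1 fell with harmine, from 487, 468, 458 and 492 to 342, 331, 338 and 338 CPM (log2 fold change -0.50 ± 0.03 (SE), adjusted p = 4.54e-10), and was 429, 413, 457 and 429.6 CPM with INDY against 472, 438, 443 and 438 CPM with DMSO (95% interval -0.12 to 0.02). PRDX2 (chr19:12796820-12801800, minus strand), its close cytosolic relative, rose with harmine from 113, 118, 117 and 114 to 141, 146, 141 and 145 CPM (log2 fold change 0.31 ± 0.03 (SE), adjusted p = 3.33e-08) and fell with INDY from 118, 121, 119 and 120.2 to 84.3, 92.7, 88.6 and 89.8 CPM (log2 fold change -0.43 ± 0.03 (SE), adjusted p = 1.33e-10). None of the 16 libraries crossed that order, with harmine above both controls and INDY below both, and the effects differed by -0.74 (adjusted p = 2.95e-11). PRDX5 fell with INDY, with 138 to 151 CPM against 195 to 199 CPM (log2 fold change -0.44), and mitochondrial PRDX3 fell slightly with harmine, with 136 to 138 CPM against 142 to 149.7 CPM (log2 fold change -0.09, adjusted p = 0.00467), a call lost without water replicate 1 (adjusted p = 0.0194). PRDX4 of the endoplasmic reticulum was not called (95% intervals -0.06 to 0.12 and -0.05 to 0.12), nor was PRDX6 (95% intervals -0.15 to -0.02 and -0.11 to 0.02, harmine first), though PRDX6 was called lower with harmine in 6 alternative analyses, among them without harmine replicate 4 (adjusted p = 0.00812).

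SOD2, the mitochondrial superoxide dismutase, fell with both compounds. It measured 746, 636, 644 and 773 CPM with water and 469, 478, 493 and 468 CPM with harmine (log2 fold change -0.55 ± 0.06 (SE), adjusted p = 1.5e-07), and 689, 609, 654 and 647 CPM with DMSO and 462, 430.3, 459.7 and 404 CPM with INDY (log2 fold change -0.57 ± 0.06 (SE), adjusted p = 4.66e-08). The difference was -0.01 (95% interval -0.18 to 0.16). Cytosolic SOD1 was at 193 to 222 CPM with water and was not called with either compound (log2 fold changes 0.08 with harmine and -0.09 with INDY). Catalase, CAT, fell slightly with both (log2 fold changes -0.14 and -0.15, adjusted p = 0.000537 and 0.000196).

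Of 7 enzymes of carbonyl and epoxide metabolism tested, 3 fell and 1 rose with harmine (42.9% and 14.3%, against 22.8% and 24.9% of all genes). With INDY 1 fell and 2 rose (14.3% and 28.6%, against 33.4% and 33.2% of all genes). EPHX1 (chr1:225810124-225845563, plus strand), the microsomal epoxide hydrolase, was 23.9, 18.8, 17.2 and 26.8 CPM with water and 14.7, 14.2, 13.8 and 15.9 CPM with harmine (log2 fold change -0.56 ± 0.12 (SE), adjusted p = 0.000421). Without water replicates 1 and 4, the higher pair, the log2 fold change was -0.30 and was not called (adjusted p = 0.0189). With DMSO EPHX1 was 21.5, 19.8, 18.7 and 18.3 CPM and with INDY 34.7, 29.9, 39.5 and 31.1 CPM (log2 fold change 0.79 ± 0.11 (SE), adjusted p = 3.55e-06), and the effects differed by 1.35 (adjusted p = 7.51e-07). CBR1, a carbonyl reductase, also fell with harmine (log2 fold change -0.25, 28.2 to 30.4 CPM against 33.9 to 35.5 CPM) and rose with INDY (0.17, 42.1 to 45.4 CPM against 36.8 to 40.8 CPM). Its INDY call was lost without INDY replicates 2 and 4 (adjusted p = 0.0121).

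AKR1C3 (chr10:5035354-5107686, plus strand), an aldo-keto reductase of steroid and prostaglandin metabolism, fell with harmine from 12.6, 8.69, 8.58 and 13.3 to 4.42, 4.91, 4.51 and 4.04 CPM (log2 fold change -1.26 ± 0.15 (SE), adjusted p = 1.18e-06). With INDY it spread from 6.11 to 10.1 CPM around the DMSO libraries at 7.45 to 8.07 CPM (95% interval -0.31 to 0.31), and the effects differed by 1.26 (adjusted p = 4.53e-05). AKR1C1 shares 13.6% and AKR1C2 20.1% of its stretches with other annotated genes, mostly with each other, and both were low, at 0.341 to 0.719 and 0.0745 to 0.333 CPM with water. With the counts of AKR1C1, AKR1C2 and AKR1C3 summed, the log2 fold change was -1.16 ± 0.15 (SE) with harmine (adjusted p = 3.43e-06) and -0.03 ± 0.15 (SE) with INDY (adjusted p = 0.882). AKR1B10 was low, with 23 to 41 counts per water library, 14 to 19 with harmine, 15 to 33 with DMSO and 3, 4, 3 and 10 with INDY. It fell with INDY from 0.536, 0.457, 0.513 and 0.323 to 0.06, 0.0754, 0.0482 and 0.214 CPM (log2 fold change -2.25 ± 0.34 (SE), adjusted p = 7.01e-06). With harmine AKR1B10 was lower but not called. Its log2 fold change was -0.69 to -0.51 over 17 alternative analyses (adjusted p 0.0202 to 0.158). ALDH3A1, a further low gene, was 1.6, 1.5, 1.67 and 1.43 CPM with harmine against 1.13, 1.12, 1.24 and 1.28 CPM with water (log2 fold change 0.38, adjusted p = 0.00944), and it lost its call in 16 alternative analyses (adjusted p 0.0111 to 0.0651), among them without any single water or harmine library. AKR1B1, the aldose reductase, was not called (95% intervals -0.33 to -0.02 with harmine and -0.25 to 0.07 with INDY), but without water replicate 3 it was called lower with harmine (log2 fold change -0.26, adjusted p = 0.00311).

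ABCC1, which exports glutathione conjugates, was lower with either compound. It fell from 53.3, 55.2, 54.6 and 54.3 to 45.4, 46.3, 48 and 47.8 CPM with harmine (log2 fold change -0.21 ± 0.04 (SE), adjusted p = 0.000389) and from 54.2, 50.6, 51.3 and 53 to 41.1, 45.9, 38.1 and 43.4 CPM with INDY (log2 fold change -0.31 ± 0.04 (SE), adjusted p = 3.69e-06).

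**Figure D5:**
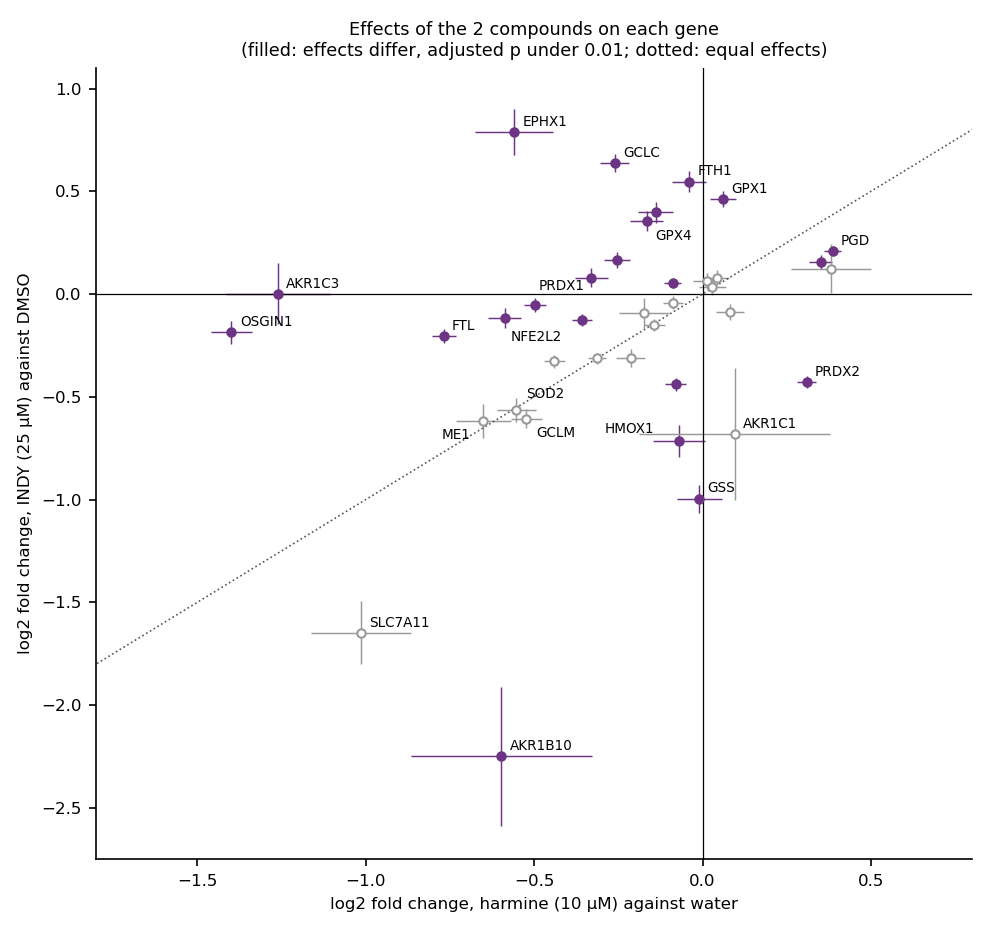
Log2 fold change with harmine (horizontal axis) and with INDY (vertical axis) for each of the 38 genes, with standard errors. Filled points are genes whose effects differed at an adjusted p under 0.01, and the dotted line marks equal effects. ME1, SOD2 and GCLM lie on or near the line, EPHX1 and GCLC above it and GSS and PRDX2 below it.

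Some genes of the set differed between the 2 mock-treated groups. Every DMSO library was above every water library for 14 of the 38 (36.8%, against 9.76% of all genes). Every DMSO library was below every water library for 2 (5.26%, against 10.2% of all genes). Vehicle cannot be told apart here from any other difference between these groups. In the DMSO libraries TXNRD1, SRXN1, PGD, NQO1 and FTL were higher than in the water libraries (5 of 38, or 13.2%, against 1.58% of all genes), with log2 fold changes of 0.11 for PGD to 0.27 for NQO1, and 0 were lower by edgeR's test (2.71% of all genes). At an unadjusted p under 0.05 edgeR gave 4 lower, and at the adjusted threshold DESeq2 gave 2 and limma voom 0. Without water replicate 1 the number higher was 1, without water replicate 4 or DMSO replicate 2, 3 or 4 it was 2, without DMSO replicate 1 it was 3, and without water replicates 1 and 4 it was 0. TXNRD1, SRXN1 and FTL were lower with both compounds than with their own controls, and the level in each comparison is relative to its own vehicle. Mean levels of SRXN1 and FTL with INDY (27.5 and 481 CPM per kb) were near those with water (27.1 and 485). Their falls with INDY are thus measured from a higher DMSO level (30 and 554). TXNRD1 with INDY (30.8 CPM per kb) was below water too (35).

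A wider list of 98 other genes of the pathway, of which 90 were tested, gave the setting. With harmine 36 fell and 22 rose (40% and 24.4%, median log2 fold change -0.05), where 22.8% of all genes fell and 24.9% rose (median 0.02). With INDY 47 fell and 27 rose (52.2% and 30%, median -0.16), where 33.4% of all genes fell and 33.2% rose (median -0.008). By the naming rule, the largest changes with harmine were lower MAFK (-0.95 ± 0.07 (SE), adjusted p = 1.71e-09), the small MAF partner of NRF2, PIR (-0.84), an iron-binding nuclear protein, CHAC1 (-0.82), which degrades glutathione, and SQSTM1 (-0.81), the autophagy receptor p62 that binds KEAP1, and higher GSTM2 (0.77), a glutathione transferase, and TXNRD3 (0.75), a thioredoxin reductase. With INDY they were lower TXNIP (-1.77 ± 0.25 (SE), adjusted p = 4.51e-06), the thioredoxin-binding protein, PIR (-1.46), MSRB2 (-1.21), a mitochondrial methionine sulfoxide reductase, and IDH2 (-1.07), a mitochondrial source of NADPH, and higher ABCC2 (1.23), a conjugate exporter, and SLC3A2 (1.17 ± 0.05 (SE), adjusted p = 2.19e-13), the heavy chain that pairs with SLC7A11. TXNIP stood at 41.5 to 73.7 CPM with DMSO and 15.2 to 37 CPM with water, so its fall is measured from a vehicle level that was itself called higher (log2 fold change 1.27).

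A list of 11 genes held small MAF partners of NRF2, related or competing factors, and factors of its degradation, so a count over it pools different roles. Of these 11, 8 fell with harmine (72.7%, against 22.8% of all genes) and the rest were not called. With INDY 3 of them fell and 6 rose (27.3% and 54.5%, against 33.4% and 33.2% of all genes). MAFF and MAFG, named after their values were seen, were lower with harmine (-0.44 and -0.24) and higher with INDY (0.63 and 0.31), as was MAFK (0.62 with INDY).

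Neighbouring stress programmes were measured beside these genes. The aryl hydrocarbon receptor, which also controls NQO1 and ALDH3A1, has CYP1A1 as its classic target, and CYP1A1 fell with harmine (-0.72) and with INDY (-0.31). TIPARP fell with harmine (-0.29), and AHRR with INDY was not called (0.31, adjusted p = 0.705). Of 12 targets of the integrated stress response, which include amino acid genes that share control with SLC7A11, 4 fell with harmine (33.3%, against 22.8% of all genes) and the rest were not called. With INDY 6 of them fell and 4 rose (50% and 33.3%, against 33.4% and 33.2% of all genes). DDIT3 (-0.78) and ATF5 (-0.57) fell with harmine. With INDY ASNS fell (-1.17) and ATF3 rose (1.43). Their part in the changes of the antioxidant genes was not tested.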

How the data were processed

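RNA of U2OS cells was sequenced by the authors from 16 poly(A) libraries of 4 groups. The values deposited by the authors are estimated counts, from Salmon 1.1 (selective alignment, GC and sequence bias corrections, GENCODE 37, GRCh38), summed by gene with tximport. The submitters' processing notes name edgeR 3.28.1. Here the counts were rounded, filtered with filterByExpr, scaled by TMM (factors 0.982 to 1.022) and tested with edgeR 4.0.16 (glmQLFit, glmQLFTest) in R 4.3.3. A single model held all 4 groups, with Benjamini-Hochberg adjustment over 20446 genes and a threshold of 0.01. The tests were also run on simulated counts with a common spread for all genes. That setting is simpler than the measured data, and no result here rests on it. Depth of 44301910 counts or more makes 1 CPM at least 44 counts. Gene names and starts are from GENCODE 44 (56629 genes matched by identifier, 2278 by symbol, including ABCC1 and SOD2, 174 not matched), and sequences from hg38. The values of a further gene of the pathway and the sequence of a further promoter match are not reported here.

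The genes and lists were chosen with earlier results of these data known. All 39 may be named. From the other pathway genes, the 6 with the largest change per compound were named among those that passed, averaged a log2 CPM of 1 or more and had groups that did not overlap, and from each neighbouring programme the 2 with the largest change. Other settings (DESeq2 1.42.0, limma 3.58.1, other scalings and filters, left-out libraries) were 28 fits.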

Additional observations from a re-analysis of the deposited data

Results flagged for a closer look

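A difference in direction between the compounds, with the difference itself past the test's threshold, was found for 5 genes. The INDY effect minus the harmine effect was 0.899 on the log2 scale for GCLC, 0.521 for GPX4, 0.421 for CBR1 and 1.35 for EPHX1, which fell with harmine and rose with INDY, and -0.739 for PRDX2, which did the reverse. The harmine call of GPX4 was lost in 5 alternative analyses, and that of EPHX1 without water replicates 1 and 4. The INDY call of CBR1 was lost without INDY replicates 2 and 4 (adjusted p = 0.0121). GCLC and PRDX2 kept both calls in every alternative. Doses and vehicles differed between the compounds, and what gives rise to these differences was not tested.

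In 6 of 152 groups of 4 libraries a single library lay far from the other 3 by Dixon's criterion, which chance meets in about 1 in 20 groups. They were SLC7A11 in water replicate 4 (53.7 CPM, the others 60.6 to 62), GPX1 in DMSO replicate 1 (104 CPM, the others 95.7 to 97), PRDX1 in DMSO replicate 1 (472 CPM, the others 438 to 443), PRDX5 and SOD1 in DMSO replicate 2 (199 CPM, the others 195, and 241 CPM, the others 233 to 234), and AKR1B10 in INDY replicate 4 (0.214 CPM, the others 0.0482 to 0.0754).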

How the results depend on the processing

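No fold change of the 38 genes that was called changed sign under any alternative run. Of the values of single genes under alternatives, 642 kept their side of the threshold with harmine, 25 lost it and 15 gained it. With INDY these numbers were 702, 12 and 6, and for the difference 1007, 6 and 11. Asking for at least 1.5-fold left 0 higher and 6 lower with harmine, 2 and 6 with INDY, 5 and 4 for the difference and 0 higher for DMSO against water. For DMSO against water, the number higher was 3 with no filter, 3 with the replicate block and 0 without water replicates 1 and 4, and the number lower was 2 with DESeq2, 1 with library totals alone, 2 with no filter and 3 at an adjusted p under 0.05. Leaving out each library in turn gave, for harmine, 3 that rose and 18 to 22 that fell, for INDY 9 to 10 and 15 to 17, 15 to 16 above and 6 to 8 below for the difference, and 1 to 4 higher and 0 to 1 lower for DMSO against water. The AKR1B10 difference was -1.38 without INDY replicate 3 (adjusted p = 0.0109) and -1.08 without INDY replicates 1 and 3 (adjusted p = 0.0477). Deviations of log2 CPM from the group means, over all genes tested, were correlated between libraries of a control and its treated group. Same-numbered libraries gave -0.05 to -0.007 for water and harmine and -0.02 to 0.09 for DMSO and INDY. Differently numbered libraries gave -0.04 to 0.05 and -0.10 to 0.11. The numbers thus gave no sign of a pairing, but a small shared effect would not show in these values. The fit with the replicate block gave 3 genes that rose and 19 that fell for harmine, and 9 and 16 for INDY. At the low levels of AKR1B10, AKR1C1, AKR1C2 and ALDH3A1 depth limits what can be seen.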
